A study of Mus musculus with 58 samples.

Results

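Ubiquitin-specific proteases (Usp) are the largest family of deubiquitinases, the enzymes that remove the small protein ubiquitin from other proteins. Their expression was examined in limb and breathing muscle of mice with pancreatic cancer. A gene belonged to the family here if the array annotation gave it a symbol of Usp, a number and at most 1 letter. The rule took 50 of the 23185 named genes, each with 1 probe set, and left aside 7 symbols of other form, such as the Usp17-like genes, Usp6nl and Uspl1. The animals were adult female NSG mice, an immunodeficient strain without mature T, B and natural killer cells. Pieces of pancreatic ductal adenocarcinoma, resected from cachectic patients, were attached to the pancreas of the tumour-bearing mice (patient-derived xenograft, PDX). Sham mice underwent surgery and received no tumour. The tibialis anterior (TA), a fast muscle of the lower leg, and the diaphragm were taken when tumour-bearing mice were severely cachectic, that is wasted, or when tumours reached a size limit. Tumours of 4 patients gave 4 cohorts. Each muscle had 3 sham arrays per cohort, and 3, 5, 5 and 4 PDX arrays in cohorts 1 to 4, which made 12 sham and 17 PDX arrays. A cohort is 1 tumour, so cohort and tumour cannot be told apart.

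Ubiquitin chains built on a protein mark it for the proteasome, the cell's main protein-degrading machine, or change its location and partners. Usp enzymes cut these chains with a cysteine protease domain. They rescue substrates, trim signals and recycle ubiquitin, and several act on histones, on receptors in endosomes or on the proteasome itself. In wasting muscle the opposing enzymes, the ubiquitin ligases of the atrophy programme, are the better known side of this system. Usp19 and Usp14 are among the members studied in muscle atrophy.

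The promoters of 4 members that the results turn on are printed to show how unlike the regions before their starts are. RefSeq's table for GRCm38.p6 held a window for 38 of the 50 members. Each sequence is the 250 bases before the gene's start, 5′ to 3′ on the gene's strand. Capitals mark GC boxes (GGGCGG or its reverse complement, the binding sequence of Sp1 and its relatives), CCAAT boxes and, in Usp45, the glucocorticoid response half-site AGAACA. Usp54 lies on the minus strand with its window at chr14:20618355-20618604, Usp46 on the minus strand at chr5:74068412-74068661, Usp45 on the plus strand at chr4:21776020-21776269 and Usp13 on the plus strand at chr3:32817376-32817625.
Usp54: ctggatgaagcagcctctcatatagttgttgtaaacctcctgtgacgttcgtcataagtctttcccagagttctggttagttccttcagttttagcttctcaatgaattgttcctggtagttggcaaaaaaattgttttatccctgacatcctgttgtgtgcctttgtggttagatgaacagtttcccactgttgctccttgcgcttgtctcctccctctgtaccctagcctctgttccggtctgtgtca
Usp46: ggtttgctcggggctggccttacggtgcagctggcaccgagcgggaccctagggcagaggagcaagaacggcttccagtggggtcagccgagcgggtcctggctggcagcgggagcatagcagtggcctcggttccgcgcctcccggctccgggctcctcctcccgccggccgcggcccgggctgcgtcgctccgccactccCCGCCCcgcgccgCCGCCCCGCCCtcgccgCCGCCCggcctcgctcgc
Usp45: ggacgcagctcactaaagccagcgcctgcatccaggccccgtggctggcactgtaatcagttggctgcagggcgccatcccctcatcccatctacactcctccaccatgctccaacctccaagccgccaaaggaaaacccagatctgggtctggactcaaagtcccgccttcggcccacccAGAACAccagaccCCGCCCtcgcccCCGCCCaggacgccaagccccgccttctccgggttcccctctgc
Usp13: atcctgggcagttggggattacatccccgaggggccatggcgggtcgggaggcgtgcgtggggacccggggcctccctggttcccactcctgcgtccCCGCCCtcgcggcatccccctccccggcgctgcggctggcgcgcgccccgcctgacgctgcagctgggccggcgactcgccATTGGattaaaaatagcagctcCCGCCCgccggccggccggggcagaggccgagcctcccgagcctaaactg

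The Usp54 window had a GC content of 45.2% and none of the 10 motifs searched. The windows of Usp46, Usp45 and Usp13 had GC contents of 77.6%, 65.2% and 73.6%, and each held GC boxes. GC boxes were present in 25 of 38 member windows (65.8%) and in 32.7% of all 32817 windows, which include those of genes without a protein product. The median GC content was 65% over the members and 52.4% over all windows. The E-box CACGTG, the sequence that clock factors of the Clock and Arntl type bind, occurred in the windows of Usp4, Usp16 and Usp31 and in 6.02% of all windows. AGAACA occurred in the windows of Usp45 and Usp19 and in 16.1% of all windows. All motifs were searched on both strands. The others were the D-box with letters TTATGTAA, the FoxO site with GTAAACA, the STAT site with TTCNNNGAA, the ETS site with CCGGAAG, the cyclic AMP response element with TGACGTCA and the NRF1 site. Among the motifs in capitals only neighbouring GC boxes of Usp46 overlapped.

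Levels are RMA log2 values, which cannot be compared between genes, and differences are on the same log2 scale. The median of all values in the table was 3.78. A total of 40 members lay above it in the mean of each muscle and treatment group. The 9 members Usp9y, Usp26, Usp27x, Usp29, Usp35, Usp43, Usp44, Usp50 and Usp51 lay below it in every group, and Usp49 did so in part of them. A difference of such a dim member is read as a bound. Usp9y, a Y-linked gene that female mice lack, had means of 1.62 in both sham and PDX TA and of 1.52 and 1.51 in sham and PDX diaphragm. Its TA effect was 0.0027 (adjusted p = 0.989), so its 12 sham and 17 PDX values per muscle show the level of a probe set without target. Skeletal muscle markers were high on all arrays, with array means over the 10 genes from 9.92 to 11.1.

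Several marker lists moved with the tumour or with single arrays. All 5 fibroblast genes and 4 of 5 tendon genes were lower in PDX than in sham TA. The mean of the fibroblast genes ranged from 7.29 to 8.06 in sham TA and from 5.08 to 7.31 in PDX TA. The mean of the tendon genes ranged from 4.38 to 6.28 in sham TA and from 3.37 to 4.97 in PDX TA. In the diaphragm 4 of 5 macrophage genes were higher in PDX, with sham means of 5.91 to 6.80 and PDX means of 6.42 to 7.99. The mean of 9 hepatocyte genes varied from 3.75 to 10.7 in sham and from 3.82 to 11.1 in PDX diaphragm, and from 2.97 to 6.36 in TA. These genes were listed as hepatocyte markers, and the source of their transcripts on these arrays was not tested. The part of other cell types in the Usp values was not tested unless a value is given below. In whole muscle, fewer cells of a type and less RNA per cell cannot be told apart.

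In the TA of tumour-bearing mice 8 members were higher than in sham TA, 2 were lower and 40 did not pass. The threshold was limma's p below 0.05 after Benjamini-Hochberg adjustment over all 23185 genes. The called share of the members was 20%, beside 12.8% of all genes, of which 6.32% were higher and 6.53% lower. Most members are bright, and among probe sets above the table median the shares were close, with 13 of 41 members (31.7%) beside 3423 of 11802 genes (29%). The sign was positive in 33 members and negative in 17. The median difference was 0.05 over members and -0.01 over all genes, and the median absolute difference was 0.08 and 0.09. No member reached 1.5-fold in either muscle, and none had PDX and sham arrays apart in all 4 cohorts. Over all genes 0.216% had all PDX above and 0.315% all PDX below sham in the TA, and 0.25% and 0.168% in the diaphragm. Separation in fewer cohorts was not counted over all genes. In the diaphragm 1 member was higher and 4 were lower, and 45 did not pass. That is 10% of the members, beside 12.5% of all genes (5.89% higher and 6.58% lower), and among probe sets above the table median 15% of 40 members beside 25.7% of genes. The median over members was -0.01, and over all genes it was 0.00 to 2 decimals (-0.0043).

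**Figure D1:**
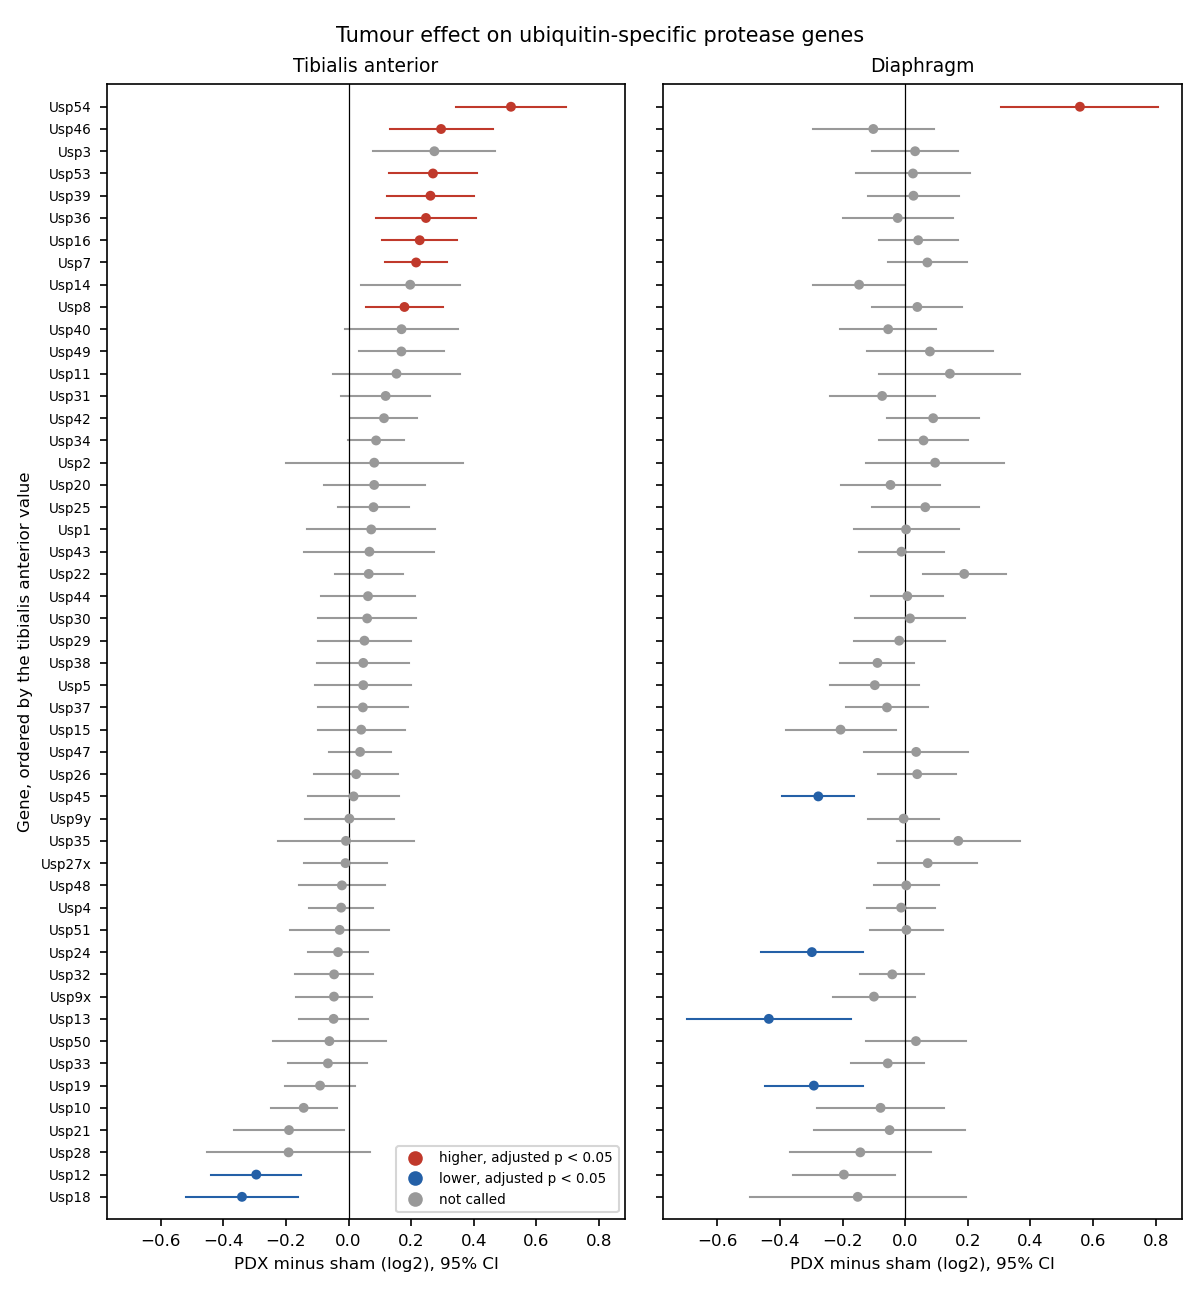
PDX minus sham (log2, x axis) for the 50 members (y axis, ordered by the TA value) in TA and diaphragm; points are the mean over 4 cohorts, lines the 95% confidence interval, red and blue the members that passed as higher or lower. Usp54 stands at the top of both panels at 0.52 and 0.56, and the other 7 members higher in the TA are grey in the diaphragm.

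Usp54, a member long annotated as lacking protease activity, was the one gene of the family higher in both muscles. Across the table, 285 genes (1.23%) passed as higher in both and 2.36% as lower in both, and no member was lower in both. In sham TA its levels were 4.37, 4.33 and 4.16 in cohort 1, 4.75, 4.61 and 4.81 in cohort 2, 4.14, 4.35 and 3.98 in cohort 3, and 4.24, 4.80 and 4.56 in cohort 4. In PDX TA they were 5.05, 4.83 and 5.10 in cohort 1, 4.99, 4.72, 5.20, 4.57 and 5.14 in cohort 2, 4.92, 4.85, 4.92, 5.31 and 4.38 in cohort 3, and 5.02, 5.14, 4.92 and 4.82 in cohort 4. Every PDX array lay above every sham array in cohorts 1, 3 and 4, the smallest gap being in cohort 4, and the groups overlapped in cohort 2. The mean TA effect was 0.52 (1.43-fold, SE 0.09, 95% interval 0.34 to 0.69, adjusted p = 0.000116), with cohort effects of 0.71, 0.20, 0.72 and 0.44.

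In sham diaphragm the levels of Usp54 were 4.69, 4.80 and 4.92 in cohort 1, 5.33, 5.23 and 4.66 in cohort 2, 4.73, 5.10 and 4.67 in cohort 3, and 5.19, 5.17 and 5.21 in cohort 4. In PDX diaphragm they were 5.55, 5.24 and 5.34 in cohort 1, 5.23, 5.36, 5.77, 5.27 and 5.51 in cohort 2, 5.86, 6.06, 5.83, 4.99 and 5.66 in cohort 3, and 6.10, 6.11, 4.87 and 5.51 in cohort 4. Only cohort 1 had no overlap, and the array at 4.87 in cohort 4 lay below all 3 of its shams. The mean diaphragm effect was 0.56 (1.47-fold, SE 0.12, 95% interval 0.31 to 0.81, adjusted p = 0.00285), with cohort effects of 0.57, 0.36, 0.84 and 0.46. The 2 effects differed by 0.04 (diaphragm minus TA, 95% interval -0.26 to 0.34, adjusted p = 0.940), an interval that leaves room for differences of either sign. The TA call was lost when the mean of the tendon genes entered the fit as a covariate (0.56, SE 0.20, adjusted p = 0.965). With that covariate limma called 0 genes in the whole table (1073 at an unadjusted p under 0.05). The diaphragm effect kept its call without the arrays with high hepatocyte markers, a fit that left single arrays in some groups.

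**Figure D2:**
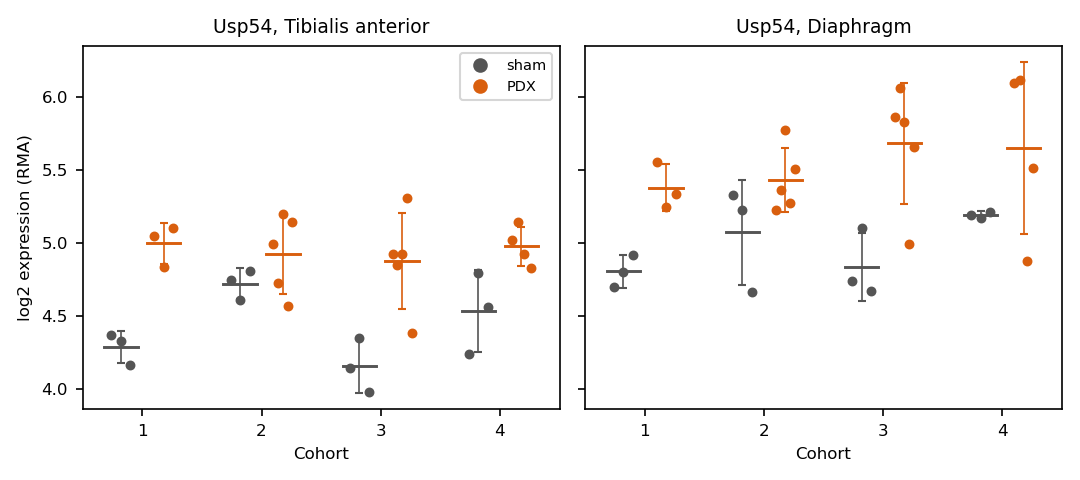
RMA log2 level of Usp54 (y axis) by cohort (x axis) in TA and diaphragm, grey for sham and orange for PDX; each point is an array, bars are means and error bars SDs. Group means are higher in PDX in all 4 cohorts of both muscles, with no overlap in cohorts 1, 3 and 4 of the TA and in cohort 1 of the diaphragm.

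Among members grouped by role, the 3 genes listed as spliceosomal or without catalysis were all higher in the TA. Higher there were 6.32% of all genes and 14.6% of probe sets above the table median. The median of the 3 members was 0.27 in the TA and 0.03 in the diaphragm, and the group was put together with earlier results known. Usp53, the close relative of Usp54 and a tight junction protein, had levels of 5.85 to 6.42 (median 6.29) in sham and 6.11 to 7.06 (median 6.52) in PDX TA. These ranges overlapped, and the effect was 0.27 (SE 0.07, adjusted p = 0.00731), with cohort effects of 0.22, -0.06, 0.60 and 0.32. Usp39, a part of the spliceosome that has lost protease activity, had 5.47 to 6.42 (median 5.85) in sham and 5.84 to 6.62 (median 6.09) in PDX TA, an effect of 0.26 (SE 0.07, adjusted p = 0.00922). In the diaphragm Usp53 and Usp39 had effects of 0.02 and 0.03 and were not called. Neither gene's effect passed the test of the difference between muscles (Usp53 -0.24, adjusted p = 0.209). Leaving out cohort 3 ended the TA calls of Usp53 (0.16, adjusted p = 0.149) and Usp39 (0.20, adjusted p = 0.0664), and leaving out cohort 4 ended that of Usp39 (0.24, adjusted p = 0.056).

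Of the 10 histone and chromatin members, 3 were higher in the TA and none in the diaphragm. The shares higher were 6.32% and 5.89% of all genes, and 14.6% and 11.8% of probe sets above the table median. The difference between the muscles passed for none of the 10 (limma). Usp7, which stabilises Mdm2 and p53 among many nuclear proteins, had levels of 7.36 to 7.81 (median 7.64) in sham and 7.72 to 8.12 (median 7.83) in PDX TA. Its effect was 0.22 (SE 0.05, adjusted p = 0.00252), the smallest error among the called members, and it was positive in all 4 cohorts (0.28, 0.08, 0.32 and 0.18). Without cohort 1 it narrowly missed the threshold (0.19, adjusted p = 0.0512). Usp16, a histone H2A deubiquitinase, had 6.85 to 7.23 (median 6.999) in sham and 6.93 to 7.49 (median 7.22) in PDX TA, an effect of 0.23 (SE 0.06, adjusted p = 0.00893). Its call was lost without cohort 1 (0.19, adjusted p = 0.123) or cohort 4 (0.21, adjusted p = 0.0813). Usp36, a nucleolar enzyme, had an effect of 0.25 (SE 0.08, adjusted p = 0.0325), and its call was lost in 9 of 29 fits with 1 array removed. Usp3, another H2A enzyme, had a value of 0.27 (SE 0.10, adjusted p = 0.056), and Usp22, the enzyme of the SAGA coactivator, had 0.19 in the diaphragm (SE 0.06, adjusted p = 0.054). Both missed the threshold. Usp27x, Usp44 and Usp51 of this group were dim and uncalled in both tumour comparisons.

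Wdr48 is a WD-repeat protein that activates Usp1, Usp12 and Usp46. Usp12 and Usp46 are close paralogues, and in the TA they passed in opposite directions. Usp46 had levels of 5.09 to 6.13 (median 5.76) in sham and 5.33 to 6.58 (median 5.95) in PDX TA. Its effect was 0.30 (SE 0.08, adjusted p = 0.0126), with 0.47, 0.50 and 0.55 in cohorts 1, 3 and 4 and -0.33 in cohort 2. It was 0.51 without cohort 2, where the call was kept, and the call was lost without cohort 1 (0.24, adjusted p = 0.172), cohort 3 (0.23, adjusted p = 0.119) or cohort 4 (0.21, adjusted p = 0.160). Usp12 had 5.16 to 5.72 (median 5.39) in sham and 4.73 to 5.44 (median 5.04) in PDX TA, an effect of -0.29 (SE 0.07, adjusted p = 0.00467) with the same sign in 4 cohorts. The TA call of Usp12 was lost without cohort 1 (-0.25, adjusted p = 0.0756). Usp12 had -0.20 in the diaphragm (adjusted p = 0.119). Usp1, which acts on the DNA repair proteins Fancd2 and Pcna, had 0.07 and 0.00 in TA and diaphragm and was not called.

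Usp18 and Usp8 completed the TA calls. Usp18 cuts the ubiquitin-like protein Isg15 from its targets and restrains the interferon receptor. Its levels were 3.78 to 4.46 (median 4.13) in sham and 3.21 to 4.27 (median 3.86) in PDX TA, the PDX values reaching below the table median. The effect was -0.34 (SE 0.09, adjusted p = 0.00823), with cohort effects of -0.27, -0.03, -0.40 and -0.66. The call was lost without cohort 4 (-0.23, adjusted p = 0.199) and in 1 fit of all arrays (adjusted p = 0.0994). In the diaphragm Usp18 had -0.15 (95% interval -0.50 to 0.19, adjusted p = 0.679). Usp8, which frees receptors on endosomes from ubiquitin, had an effect of 0.18 (SE 0.06, adjusted p = 0.0461). It was the weakest of the TA calls, and 18 of 29 fits without 1 array lost it.

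The tendon covariate ended all 10 TA calls, in a fit that called 0 of all 23185 genes. The tendon mean was itself lower in PDX than in sham TA, so covariate and treatment overlap. In that fit Usp7 had 0.26, Usp18 -0.30, Usp54 0.56, Usp12 -0.08 and Usp16 0.08. Usp46 had 0.12, Usp36 0.13, Usp53 0.14, Usp8 0.15 and Usp39 0.16. The standard errors ran from 0.11 (Usp7) to 0.20 (Usp18 and Usp54), too wide to set these members apart by how far they moved. The standard error of Usp54 was 0.20 with the covariate and 0.09 without it. Leaving out arrays with high hepatocyte markers kept the same 10 members called.

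In the diaphragm 4 members were lower in tumour-bearing mice. Usp13, a relative of the enzyme that dismantles free ubiquitin chains, had levels of 8.18 to 9.01 (median 8.71) in sham and 7.40 to 8.98 (median 8.34) in PDX diaphragm. The effect was -0.44 (1.35-fold lower, SE 0.13, 95% interval -0.70 to -0.17, adjusted p = 0.0234), with cohort effects of -0.46, -0.61, -0.36 and -0.31. The groups did not overlap in 2 of 4 cohorts. Its paralogue Usp5, the main enzyme for free chains, had -0.10 (95% interval -0.24 to 0.05, adjusted p = 0.458). In the TA Usp13 had -0.05 and Usp5 0.05, neither called.

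Usp19 sits in the endoplasmic reticulum membrane, and mice without it lose less muscle in several wasting models. Its levels were 6.64 to 7.26 (median 6.92) in sham and 6.22 to 7.05 (median 6.70) in PDX diaphragm. It was lower there by an effect of -0.29 (SE 0.08, adjusted p = 0.0109), negative in all cohorts (-0.14, -0.35, -0.25 and -0.43). In the TA it had -0.09 (95% interval -0.20 to 0.02, adjusted p = 0.347), an interval that excludes a rise above 0.02. Usp25, which has a muscle isoform, had 0.08 in the TA and 0.06 in the diaphragm and was not called. Usp24, one of the largest members, had levels of 7.53 to 8.31 (median 8.07) in sham and 7.22 to 8.20 (median 7.82) in PDX diaphragm, an effect of -0.30 (SE 0.08, adjusted p = 0.012). The other large members, Usp9x, Usp32, Usp34 and Usp47, had diaphragm values of -0.10, -0.04, 0.06 and 0.04 and were not called.

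The 2 PDX diaphragm arrays with the lowest Usp13 were replicate 1 of cohort 2 (7.40) and replicate 4 of cohort 3 (7.55). They had hepatocyte means of 10.3 and 11.1 and skeletal muscle means of 9.996 and 9.916, among the lowest of the diaphragm. Their Usp24 levels were 7.22 and 7.46. The next lowest Usp13 values were in PDX cohort 1, replicate 3 (7.67) and replicate 2 (7.78). Those arrays had hepatocyte means of 10.6 and 7.58 and skeletal muscle means of 10.4 and 10.5. A fit left out the 6 PDX and 5 sham diaphragm arrays with a hepatocyte mean over 1 log2 unit above the median array. In it Usp13, Usp24 and Usp54 kept their calls. Usp19 and Usp45 missed the threshold at nearly the same difference (-0.29 and -0.27). That fit kept 1 sham and 1 PDX array in cohort 1 and 1 sham array in cohort 3, so these groups were single arrays. The cut was set against the muscle's median array, so it did not select arrays free of these markers. With the hepatocyte mean as a covariate all 5 diaphragm calls held. Leaving out a cohort ended the call of Usp13 without cohort 1 (-0.43, adjusted p = 0.106) or 2 (-0.38, adjusted p = 0.117), of Usp24 without cohort 2 (-0.26, adjusted p = 0.0526) or 3 (-0.30, adjusted p = 0.0588) and of Usp19 without cohort 4 (-0.24, adjusted p = 0.107).

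Usp45, which acts on the DNA repair nuclease Ercc1, had the smallest adjusted p in the diaphragm. Its sham levels were 5.57, 5.67 and 5.63 in cohort 1, 5.55, 5.51 and 5.09 in cohort 2, 5.31, 5.54 and 5.42 in cohort 3, and 5.55, 5.68 and 5.46 in cohort 4. Its PDX levels were 5.24, 5.39 and 5.29 in cohort 1, 5.19, 5.13, 5.24, 5.31 and 5.42 in cohort 2, 5.13, 5.26, 4.83, 5.26 and 5.15 in cohort 3, and 5.19, 5.12, 5.21 and 5.24 in cohort 4. Every PDX array lay below every sham array in cohorts 1, 3 and 4, a pattern not counted over all genes. In cohort 2 a sham array at 5.09 lay below all 5 PDX arrays. The effect was -0.28 (SE 0.06, 95% interval -0.39 to -0.16, adjusted p = 0.00141), and in the TA it was 0.02 (95% interval -0.13 to 0.16, adjusted p = 0.936).

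The difference between the muscles' tumour effects was tested directly. It passed for 3 members, all lower in the diaphragm than in the TA, which is 6% of the members beside 6.33% of all genes (3.66% higher and 2.67% lower). Usp45 had -0.29 (SE 0.09, adjusted p = 0.0327), Usp46 -0.40 (SE 0.12, adjusted p = 0.0425) and Usp14 -0.34 (SE 0.10, adjusted p = 0.036). Each was negative in all 4 cohorts. Usp14, which sits on the proteasome and trims ubiquitin from arriving substrates, passed in neither muscle alone. In the TA it had 0.20 (SE 0.08, adjusted p = 0.1003), with sham levels of 6.28 to 6.72 (median 6.46) and PDX levels of 6.27 to 7.15 (median 6.64). In the diaphragm it had -0.15 (SE 0.07, adjusted p = 0.209), with sham levels of 5.70 to 6.52 (median 6.26) and PDX levels of 5.67 to 6.27 (median 6.01). Both pairs of groups overlapped.

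Usp46 in the diaphragm had sham levels of 5.51 to 6.38 (median 5.96) and PDX levels of 5.24 to 6.23 (median 5.92), an effect of -0.10 (adjusted p = 0.600). Leaving out 1 of the 58 arrays ended the call of the muscle difference in 31 fits for Usp46, 13 for Usp14 and 8 for Usp45, with no change of sign. Leaving out the arrays with high hepatocyte markers left single arrays in some diaphragm groups. In that fit Usp46 kept its call, Usp13 gained one, and Usp14 (-0.38) and Usp45 (-0.33) missed the threshold. The muscle difference of Usp13 over all arrays was -0.39 (adjusted p = 0.087) and that of Usp24 was -0.26 (adjusted p = 0.062). Without cohort 1, without cohort 4 or with the 4 cohort differences as replicates no member passed. Among all 23185 genes 531, 1149 and 403 passed in these fits. They had 10, 6 and 6 members at an unadjusted p under 0.05 in limma. Taking equal sample numbers as blocks also left no member called, beside 1329 of all genes. It had 11 members at an unadjusted p under 0.05 in limma. Across the 50 members the TA and diaphragm effects correlated at r = 0.54 (Spearman's rho 0.47), with 31 of the same sign. The muscles share no arrays, but the labels do not say whether they share mice, and members are not independent points.

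**Figure D3:**
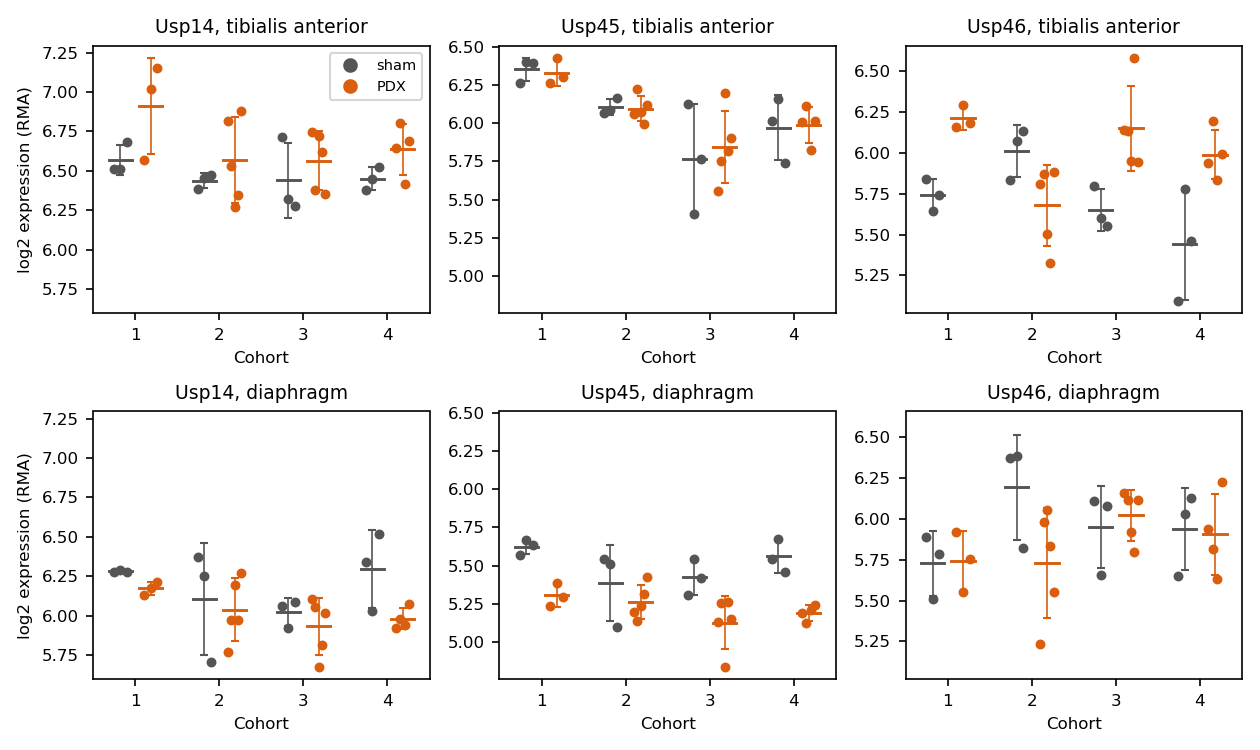
RMA log2 levels (y axis) of Usp14, Usp45 and Usp46 by cohort (x axis), TA above and diaphragm below, grey for sham and orange for PDX; points are arrays, bars means and error bars SDs. Usp45 overlaps fully in the TA and is separated in cohorts 1, 3 and 4 of the diaphragm, and Usp46 is higher in PDX TA in those same cohorts.

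Whether the tumours of different patients had different effects was asked with a moderated F test over the 4 cohort effects. No member passed in either muscle in limma, with 3 in the TA and 1 in the diaphragm at an unadjusted p under 0.05. Among all genes 3 passed in the TA (0.0129%) and 1 in the diaphragm (0.00431%). The smallest member values in the TA were those of Usp46 (adjusted p = 0.277), Usp22 (adjusted p = 0.455) and Usp53 (adjusted p = 0.493). Usp22 had 0.39 in cohort 3 and -0.05, -0.06 and -0.03 in cohorts 1, 2 and 4. In the diaphragm they were Usp2 (adjusted p = 0.490), with 0.00, -0.21, 0.76 and -0.17, then Usp49 (adjusted p = 0.728) and Usp38 (adjusted p = 0.753). Within single cohorts Usp54 passed in TA cohort 1, where 2.46% of all genes did. In TA cohort 3, where 7.96% of all genes passed, Usp3, Usp7, Usp22, Usp36, Usp39, Usp46, Usp53 and Usp54 were higher. No member passed in cohort 2 or 4 of the TA, where 0% and 0.302% of all genes passed, or in any cohort of the diaphragm, where 0.0345%, 2.69%, 1.06% and 0.384% of all genes passed in cohorts 1 to 4.

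Between sham muscles the family differed more widely. In sham diaphragm 6 members were higher and 24 lower than in sham TA, and 20 did not pass. The called share was 60%, beside 39.7% of all genes (15.2% higher and 24.5% lower). Among probe sets above the table median the shares were nearer, with 28 of 41 members (68.3%) beside 53.4% of 11886 genes. Of the 24 lower members, Usp26, Usp29, Usp44, Usp50 and Usp51 were dim in both muscles. The median difference was -0.18 over members and -0.09 over all genes. Usp11, which acts in TGF-beta signalling and DNA repair, was the highest in the diaphragm. Its levels were 4.01 to 4.76 (median 4.31) in sham TA and 4.39 to 5.59 (median 5.05) in sham diaphragm, a difference of 0.72 (1.65-fold, SE 0.11, adjusted p = 1.43e-06). Its relatives Usp4 and Usp15 were lower in the diaphragm (-0.19 and -0.24). The other members higher in the diaphragm were Usp54 (0.55, adjusted p = 0.000133), Usp18 (0.54, adjusted p = 0.00305), Usp3 (0.33), Usp46 (0.24) and Usp8 (0.17). The calls of Usp46 and Usp8 were lost in 6 and 8 of 12 other settings.

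Usp28, a DNA damage and Myc-stabilising enzyme, had the largest negative difference. Its levels were 7.03 to 8.09 (median 7.37) in sham TA and 6.20 to 7.06 (median 6.77) in sham diaphragm, a difference of -0.80 (1.74-fold lower, SE 0.13, adjusted p = 2.60e-06). By cohort it was -0.77, -0.64, -1.49 and -0.31. Its paralogue Usp25 followed, with 9.32 to 9.68 (median 9.52) against 8.59 to 9.25 (median 8.84) and a difference of -0.62 (1.54-fold lower, SE 0.07, adjusted p = 2.15e-09). Both members of the group listed as muscle wasting and endoplasmic reticulum, Usp19 (-0.51, adjusted p = 5.16e-08) and Usp25, were thus lower in the diaphragm. So were Usp45 (-0.55), Usp47 (-0.52), Usp16 (-0.49), Usp13 (-0.46), Usp38 (-0.39), Usp2 (-0.34) and Usp39 (-0.33). The call of Usp2 was lost in 8 of 12 other settings, and its difference was -0.20 without cohort 3 (adjusted p = 0.127). Usp29, an imprinted gene, had -0.46 but was dim in both muscles.

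In each of the 4 cohorts all sham diaphragm arrays lay above all sham TA arrays for Usp11, and below them for Usp28, Usp25, Usp29, Usp19, Usp13, Usp16 and Usp47. Over all genes 4.72% were so separated upward and 4.5% downward. Of the proteasome and free-chain members, Usp14 (-0.30, adjusted p = 0.00258) and Usp13 passed and Usp5 (-0.06) did not. Without the arrays with high hepatocyte markers 4 members were higher and 16 lower, beside 12.2% and 12.9% of all genes (5815 called, against 9210 with all arrays). The calls of Usp18 (0.28, adjusted p = 0.133) and Usp14 (-0.20, adjusted p = 0.152) were then lost. So were those of Usp2, Usp4, Usp8, Usp15, Usp26, Usp44, Usp50 and Usp51. That fit held 1 sham diaphragm array each in cohorts 1 and 3. Macrophage means were 4.86 to 5.76 in sham TA and 5.91 to 6.80 in sham diaphragm, and mesothelial means 3.15 to 3.64 and 5.58 to 6.59, without overlap. Their part in these differences was not tested.

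**Figure D4:**
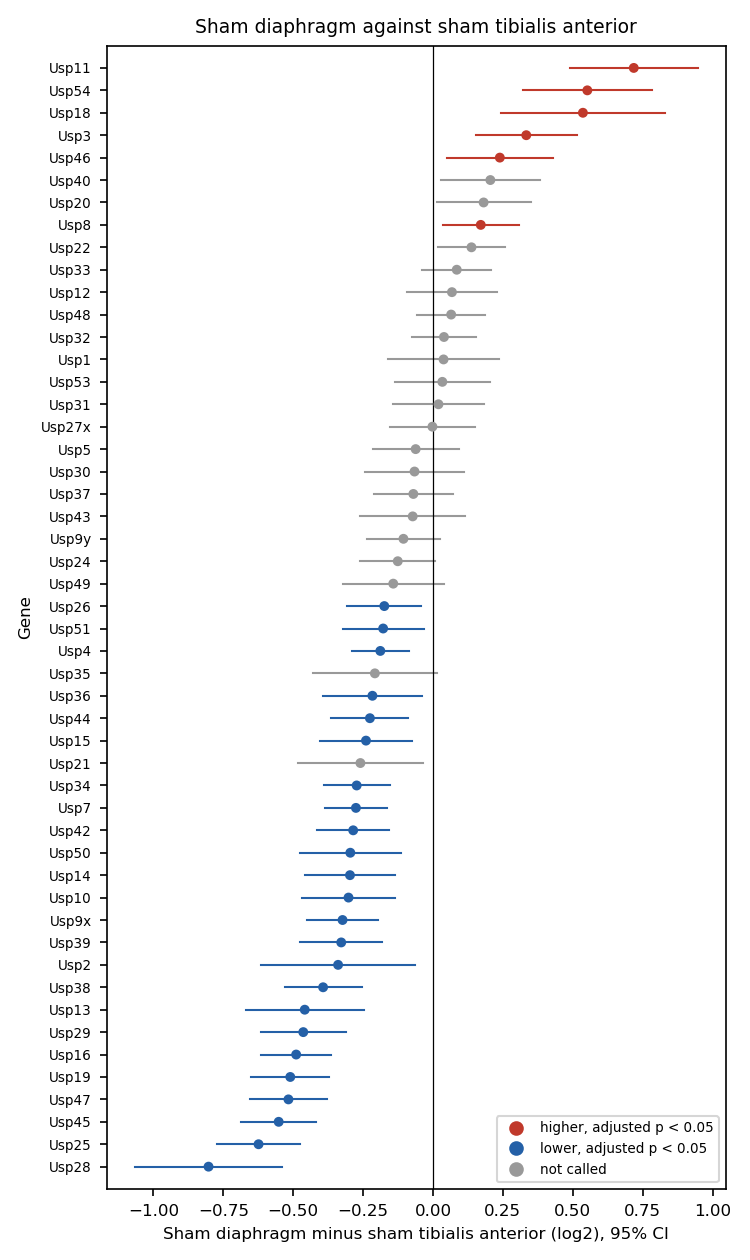
Sham diaphragm minus sham TA (log2, x axis) for the 50 members (y axis, ordered by value); points are means over 4 cohorts, lines 95% confidence intervals, red and blue the members that passed as higher or lower. Usp11 stands at 0.72 at one end and Usp28 at -0.80 at the other, with 24 members in blue.

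Usp2 is a clock-controlled gene whose product acts on clock proteins such as Per1. Its tumour effect was not called in the TA (0.08, 95% interval -0.20 to 0.36, adjusted p = 0.809) or the diaphragm (0.10, 95% interval -0.13 to 0.32, adjusted p = 0.683). Of 5 clock genes, Per1 (0.82 and 0.76), Per2 (0.53 and 0.86) and Nr1d1 (-0.75 and -0.95) passed in TA and diaphragm. Dbp passed in the TA (-0.76) and not in the diaphragm (-0.04, adjusted p = 0.963), and Arntl in the diaphragm (-0.96) and not in the TA (-0.06, adjusted p = 0.908). The spread of Usp2 between arrays of 1 group was wide. In the PDX TA of cohort 3, replicate 1 had 7.12, beside 8.75 to 9.18 in the other 4 arrays and 8.46 to 9.43 in all 28 other TA arrays. On the same array Usp28 stood at 9.06 (6.76 to 8.09 on the others), Usp15 at 7.85 (8.27 to 8.72), Dbp at 4.42 (5.98 to 8.49) and Arntl at 8.69 (4.79 to 7.11). Without it the TA effect of Usp28 passed at -0.28 (adjusted p = 0.00314), against -0.19 (adjusted p = 0.409) with it. Usp10, which binds the stress granule protein G3bp1, then passed at -0.15 (adjusted p = 0.0493), against -0.14 (adjusted p = 0.069).

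Deviations of Usp2 and Usp28 from their group means were set against those of 5 clock genes over 29 arrays per muscle. Usp28 was taken after its values were seen. These made 20 relations, tested two-sided by permuting arrays within groups (100000 resamples) and adjusted over the 20. In the TA Usp2 ran opposite to Arntl (r = -0.89, permutation p = 0.00051, adjusted 0.0051; rho = -0.70, permutation p = 0.00115, adjusted 0.00767). The coefficient was -0.71 without the 2 arrays farthest from the median of Arntl and -0.73 without replicate 1 of cohort 3. Deviations were not centred again for these values, so the group means still held the arrays left out and kept part of their pull. The same holds for every clock coefficient below with arrays left out. With Dbp, Usp2 had r = 0.85 (permutation p = 0.00286, adjusted 0.0161; rho = 0.53, permutation p = 0.0188, adjusted 0.0628), which was 0.63 without the 2 farthest arrays and 0.66 without that replicate. With Per1 the values were r = 0.44 (permutation p = 0.00013, adjusted 0.0026) and rho = 0.70 (permutation p = 0.00017, adjusted 0.0034), and r was 0.49 without the 2 farthest arrays and 0.55 without that replicate. With Per2 the rank correlation passed (rho = 0.70, permutation p = 0.00095, adjusted 0.00767) and r did not (0.30, permutation p = 0.3, adjusted 0.443).

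In the diaphragm Usp2 passed with Dbp (r = 0.46, permutation p = 0.00818, adjusted 0.0327; rho = 0.51, permutation p = 0.00901, adjusted 0.036) and with Per2 (r = 0.58, permutation p = 0.00322, adjusted 0.0161; rho = 0.50, permutation p = 0.00771, adjusted 0.036). With Per1 it had r = 0.57 (permutation p = 0.0174, adjusted 0.0579) and rho = 0.42 (permutation p = 0.0545, adjusted 0.156). With Arntl it had r = -0.48 (permutation p = 0.0227, adjusted 0.0648) and rho = -0.33 (permutation p = 0.131, adjusted 0.328). Leaving out the 2 arrays farthest from the clock gene's median gave 0.47 for Dbp and 0.65 for Per2. Usp2 with Nr1d1 passed in neither muscle (r = 0.31 and 0.18, permutation p = 0.244 and 0.424, adjusted 0.443 and 0.566). None of the 10 relations of Usp28 passed. Its r with Dbp in the TA was -0.75 with all arrays and -0.40 without the array that stood apart, which stayed in its group mean. Times of day of tissue collection were not used here.

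**Figure D5:**
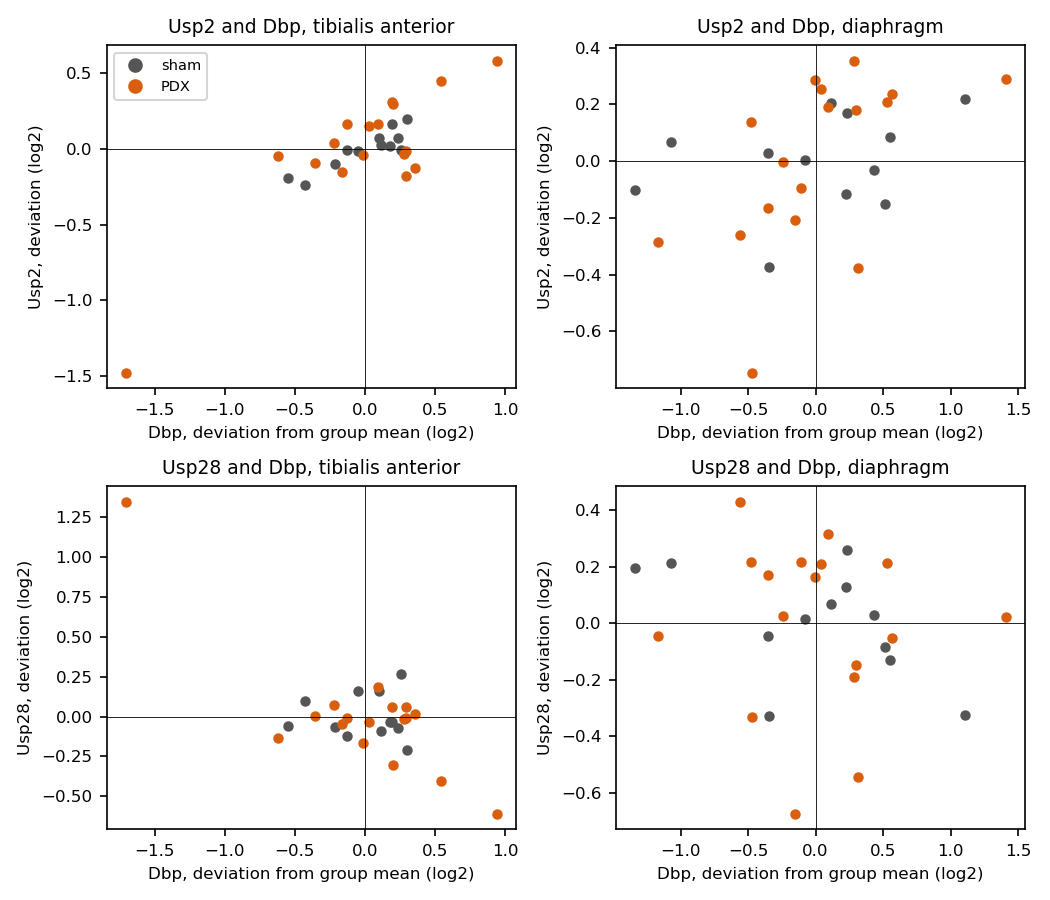
Deviation from the group mean (log2) of Usp2 (upper panels) and Usp28 (lower panels) on the y axis against that of Dbp on the x axis, TA left and diaphragm right; each point is an array, grey for sham and orange for PDX. Usp2 follows Dbp in both muscles, with r = 0.85 and 0.46, and 1 TA array lies far from the rest in both left panels.

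Within groups, the 40 brighter members had a median r of 0.15 over 780 pairs in the TA and of 0.28 in the diaphragm. The Usp2 and Usp28 pair had r = -0.87 over 29 TA arrays and -0.23 without replicate 1 of cohort 3, with its group centred again without it. Usp15 with Usp24 likewise went from 0.83 to 0.35, and Usp13 with Usp28 from 0.80 to 0.17. Usp8 with Usp32 kept 0.82 with and without that array. In the diaphragm the closest pairs were Usp9x with Usp24 (r = 0.92), Usp13 with Usp24 (0.89) and Usp13 with Usp47 (0.85), and the arrays there also differed in hepatocyte markers. These are descriptions over arrays that share a normalization.

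Of the paralogue pairs, Usp20 and Usp33, which act on receptors, had effects of 0.08 and -0.07 in the TA and -0.05 and -0.06 in the diaphragm, none called. The mitochondrial member Usp30, which opposes mitophagy, had 0.06 and 0.02. Usp9x, a large regulator of cell polarity and signalling, had -0.05 and -0.10. Usp37 and Usp48 of the DNA damage and cell cycle group had 0.05 and -0.02 in the TA. Usp4, Usp11 and Usp15 had -0.02, 0.15 and 0.04 in the TA and -0.01, 0.14 and -0.21 in the diaphragm, none called. Other uncalled members above the table median, Usp21, Usp31, Usp38, Usp40 and Usp42, had TA values of -0.19, 0.12, 0.05, 0.17 and 0.11.

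The Usp calls were set beside genes of the same system. Of 39 further deubiquitinase genes and their relatives, 8 were higher and 3 lower in the TA (median 0.09). In the diaphragm 2 of them were higher and 1 lower (median -0.02). Not all encode deubiquitinases: Psmd7, Cops6 and Pan2 are relatives without that activity, Cops5 removes Nedd8, and Eif3f and Eif3h are translation factor subunits. Among all genes 6.32% were higher and 6.53% lower in the TA, and 5.89% and 6.58% in the diaphragm, which is the background for the counts of these lists. Zranb1 (0.56), Mysm1 (0.38) and Eif3f (0.34) had the highest values among the 8, which also held Psmd7, Cops5 and Eif3h. Otud1 had 0.52 and Otulin 0.26 in the diaphragm, and Josd2 was lower in both muscles (-0.34 and -0.40). The muscle difference passed for 5 of the 39 genes, all lower in the diaphragm, among them Zranb1 (-0.47), Bap1 (-0.37) and Mysm1 (-0.37). Lower in this comparison were 2.67% of all genes and 6.73% of probe sets above the table median. Of 29 measured genes for ubiquitin and its activating and conjugating enzymes, 2 were higher and 2 lower in the TA, and none higher and 6 lower in the diaphragm (median -0.16). The lower genes there included Ube2d1 (-0.38), Ube2b (-0.35) and Ube2a (-0.31), and Ube2r2 was lower in both muscles.

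A list of 22 partners of Usp proteins and clock genes had 2 higher and 2 lower in the TA, and 4 higher and 4 lower in the diaphragm. All 4 TA calls were the clock genes Per1, Per2, Nr1d1 and Dbp given above, and no other listed gene passed there. The diaphragm calls included the clock genes Per1, Per2, Nr1d1 and Arntl. The SAGA subunits Atxn7l3 (0.36) and Eny2 (0.22), which activate Usp22, were higher in the diaphragm. G3bp1, the partner of Usp10, was lower there (-0.31). The activator Wdr48 of Usp1, Usp12 and Usp46 passed in neither muscle.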

How the data were processed

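Biotin-labelled RNA of both muscles was measured on Affymetrix arrays, as the labels state. For 58 arrays the authors deposited log2 values of 25206 probe sets, made by RMA (submitters' processing notes, which list affy 1.36.1 and R 2.15.1). Genome build, probe set definitions and the set of arrays normalized jointly were not given in the sources used here, and RMA's quantile step can hide a shift shared by most genes. A symbol was found for 23185 probe sets and all of these were tested. Array medians lay between 3.70 and 3.86. The number of arrays limits the precision.

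Tests used limma 3.58.1 in R 4.3.3, two-sided, with a mean per cohort and treatment. The tumour effect was the equally weighted mean over 4 cohorts of PDX minus sham, fitted within a muscle. The muscle difference of this effect and the sham muscle difference came from 1 fit of 58 arrays with 16 means. Calls had a Benjamini-Hochberg adjusted p under 0.05 over 23185 genes. The scripts were tested on simulated data. The labels do not say that each array is a separate mouse or that both muscles share mice, so a p-value speaks only for the spread among these arrays.

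Members, role groups and lists were chosen with earlier results of these data known. Named in full were up to 12 called members per comparison by size of difference, the first 3 of the F test per muscle and a list of known members; of other lists, up to 3 called genes per muscle. Whether equal sample numbers pair samples was checked by the correlation of deviations from group means. Over 29 numbered pairs of muscles r ranged from -0.22 to 0.22, and 4 exceeded 0.1. In 13 of the 29 the diaphragm array of equal number was the closest of its group to the TA array. The check does not settle whether numbers mark the same mouse. The labels give no pairing, so none was used in the main fits. Alternatives covered normalization, weights, dim probe sets, cohorts, single arrays, marker covariates and blocks. Promoters were read from RefSeq for GRCm38.p6.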

Additional observations from a re-analysis of the deposited data

Results flagged for a closer look

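The tumour effect differed between the muscles for Usp14, Usp45 and Usp46, at -0.34, -0.29 and -0.40 on the log2 scale (diaphragm minus TA, limma's adjusted p = 0.036, 0.0327 and 0.0425). Each was negative in 4 of 4 cohorts. Each call was lost without cohort 1, without cohort 4, with the 4 cohort differences as replicates and with equal sample numbers as blocks.

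A single array stood far from the rest of its group in 14 of 150 groups of 4 or 5 PDX arrays tested over 25 members, by the gap to its neighbour over the group's whole range (Dixon's test at the 95% level). Chance flags about 1 in 20 groups, but these groups share arrays and are not independent, so the counts cannot be set against each other. In TA cohort 3, Usp2 had an array at 7.12 (the others 8.75 to 9.18) and Usp15 one at 7.85 (8.57 to 8.72), which was the same array. In diaphragm cohort 2, Usp13 had an array at 7.40 (the others 8.26 to 8.56), Usp24 one at 7.22 (7.79 to 7.97), Usp19 one at 6.22 (6.76 to 6.95), Usp9x one at 7.80 (8.19 to 8.23) and Usp36 one at 4.84 (5.30 to 5.44). Usp30 had one at 4.84 (4.36 to 4.49), a value above the others. In diaphragm cohort 3, Usp13 had an array at 7.55 (8.34 to 8.65), Usp24 one at 7.46 (7.78 to 7.84), Usp12 one at 5.01 (5.22 to 5.28), Usp2 one at 7.94 (8.83 to 8.92) and Usp5 one at 5.61 (5.17 to 5.27). In diaphragm cohort 4, Usp28 had an array at 6.10 (6.81 to 6.85). The cohort 2 and cohort 3 arrays with the low Usp13 had hepatocyte means of 10.3 and 11.1. Without the arrays with high hepatocyte markers Usp13 and Usp24 kept their diaphragm calls, in a fit with single arrays in some groups.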

How the results depend on the processing

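No called member changed sign under the settings run. Usp54 kept its diaphragm call in 15 of 15 settings and its TA call in 14 of 15, and leaving out any 1 array ended neither. Leaving out 1 array at a time gave 6 to 11 higher and 2 to 4 lower members in the TA, 1 to 2 higher and 4 to 5 lower in the diaphragm, 0 higher and 0 to 5 lower for the muscle difference, and 4 to 8 higher and 20 to 25 lower between sham muscles. Of all genes, these fits called 2522 to 3362 in the TA and 2430 to 3047 in the diaphragm. They called 1253 to 1731 for the muscle difference and 8358 to 9675 between sham muscles.

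In the TA the main fit gave 8 higher and 2 lower members, beside 1465 and 1514 of all 23185 genes. Array weights gave 4 lower (1857 of all genes), and 1 fit of all arrays gave 1 lower (1415 genes). Leaving out cohort 1 gave 4 higher and 1 lower (678 and 748 genes). Leaving out cohort 3 gave 3 higher (1110 genes), and leaving out cohort 4 gave 4 higher and 1 lower (992 and 1112 genes). With the 4 cohort differences as replicates 1 was higher (Usp54) and 0 lower (515 and 607 genes). In that fit 12 members had an unadjusted p under 0.05 in limma. The tendon covariate left 0 higher and 0 lower in limma, among all genes too, with 2 members unadjusted. In the diaphragm, beside 1 higher and 4 lower, there were 2 higher among probe sets above the table median, after a further quantile normalization, with array weights, without cohort 4, in 1 fit of all arrays and with a replicate block. Among all genes 1401 of 11917, then 1381, 1887, 1365, 1539 and 1287 of 23185 were higher in these fits, in that order. Lower members numbered 2 without cohort 2, 2 without arrays with high hepatocyte markers, and 1 with cohort differences as replicates. Of all genes, 1030 were lower in the diaphragm without cohort 2 and 557 with cohort differences as replicates. The muscle difference had 3 lower members (619 of all genes), and 7 with array weights (1333 genes). It had 0 without cohort 1 (165 genes lower) and without cohort 4 (329 genes). With cohort differences as replicates (95 genes) and with the replicate block (521 genes) it also had 0. In those 2 fits 6 and 11 members had an unadjusted p under 0.05 in limma. Between sham muscles array weights gave 10 higher, beside 4311 of all genes. The number of all genes called fell from 2979 to 1426 in the TA without cohort 1 and from 2892 to 1438 in the diaphragm without arrays with high hepatocyte markers. In the muscle difference it fell from 1468 to 403 with cohort differences as replicates. The causes were not tested.

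Equal sample numbers of sham and PDX arrays did not deviate together in the TA (0 of 12 pairs above r = 0.1). In the diaphragm 5 of 12 pairs were above it, with r from -0.59 to 0.65, so the numbers were not taken as pairs. The replicate block gave 6 higher and 2 lower members in the TA, beside 1187 and 1050 of all genes. It gave 2 and 5 in the diaphragm (1287 and 1460 genes), and 4 and 21 between sham muscles (3513 and 5481 genes). None of the 3 muscle differences passed under it in limma (Usp14 adjusted p = 0.0596, Usp45 0.0938, Usp46 0.0706). Differences of members near or below the table median are limited by the arrays' background. The correlations without replicate 1 of TA cohort 3 were chosen after seeing the data.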
